A study of Mus musculus with 6 samples.

Results

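*Myl7*, the atrial regulatory light chain of myosin, is described here with 9 other contractile genes, the light chains *Myl4*, *Myl6* and *Myl9*, the actins *Actc1*, *Acta2* and *Actg2*, the smooth muscle myosin heavy chain *Myh11*, the troponin *Tnnt2* and the actin-binding gene *Tagln*. These 10 of the 54532 genes in the deposited table were picked by name. *Myl7* was picked because it was higher in every cKO library than in every Ctrl library, so its difference is given as a description with no test. The other 9 genes were set beside it as light chains or as genes of smooth or heart muscle, and all 10 were above 0 in all 6 libraries.

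RNA of ovaries of C57BL/6 mice at 16.5 dpc was sequenced in 3 Ctrl and 3 cKO libraries. The cKO mice were *Stra8-GFPCre Srsf1* Fl/Fl, in which the Cre transgene is switched on in germ cells as they enter meiosis and removes exons of *Srsf1*, a splicing factor. The labels give the Ctrl mice as wild type and name no transgene or allele for them. An ovary of this age holds germ cells, pregranulosa cells, stroma, vessels and blood, and the Cre is aimed at the germ cells alone. In RNA of such a mixture, fewer cells of a type and less RNA per cell cannot be told apart. Ovarian markers were checked against the tissue label, and 10 of 10 pregranulosa and 10 of 10 germ-cell marker genes were above 0 in every library, with sums of 481 to 711 and 120 to 630 FPKM. Reads on genes ranged from 14212164 to 16784241 per library. *Srsf1* was at 80.2, 70.1 and 63.1 FPKM in Ctrl 1, 2 and 3 and at 32.4, 37.0 and 36.4 FPKM in cKO 1, 2 and 3, a log2 fold change of -0.99 (SE 0.132, unadjusted limma p = 0.000158, adjusted p = 0.497, exact permutation p = 0.1). FPKM is a gene's read number scaled to its length and to the library size, and all tests were two-sided. An exact permutation test of 3 libraries against 3 cannot go below p = 0.1.

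Myosin motors pull on actin filaments. Each motor head carries an essential and a regulatory light chain, and in smooth muscle and in non-muscle cells phosphorylation of the regulatory light chain by a myosin light chain kinase switches the motor on. *Myl7* is the regulatory light chain of the heart's atria and *Myl4* the essential light chain found there, while *Myl9* and *Myl6* fill the same places in smooth muscle and in non-muscle cells. *Actc1* encodes the heart's actin, *Acta2* and *Actg2* the actins of vessel and gut muscle, and *Tnnt2* the heart's tropomyosin-binding troponin. In the ovary, smooth muscle genes are known from vessel walls and from the muscle-like cells around follicles.

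Promoters of muscle genes often hold the CArG box, which the serum response factor binds, and the MCAT element, which TEAD factors bind. The stretches below are shown because they belong to the 2 regulatory light chains among the genes, *Myl7* and *Myl9*, and to the smooth muscle actin *Acta2*. They come from RefSeq (GRCm38.p6), run 5′ to 3′ on the gene's strand and end at or before the gene's first base. Capitals mark MCAT elements and CArG boxes of the strict form CCWWWWWWGG, where W is A or T. Stretches that break this form, such as ccctatatgg and ccttgtttgg in *Acta2*, are left in lower case. The *Myl7* stretch lies at chr11:5898783-5899032 (minus strand), that of *Myl9* at chr2:156775214-156775419 (plus strand) and that of *Acta2* at chr19:34255374-34255623 (minus strand).
Myl7: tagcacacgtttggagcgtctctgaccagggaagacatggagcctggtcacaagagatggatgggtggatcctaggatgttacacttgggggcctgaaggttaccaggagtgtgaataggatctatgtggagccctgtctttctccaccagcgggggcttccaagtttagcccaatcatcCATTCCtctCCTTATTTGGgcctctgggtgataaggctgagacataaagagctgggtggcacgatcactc
Myl9: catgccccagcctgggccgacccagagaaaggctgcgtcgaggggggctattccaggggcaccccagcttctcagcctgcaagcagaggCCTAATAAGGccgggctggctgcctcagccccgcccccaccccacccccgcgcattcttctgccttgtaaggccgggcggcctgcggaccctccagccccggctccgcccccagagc
Acta2: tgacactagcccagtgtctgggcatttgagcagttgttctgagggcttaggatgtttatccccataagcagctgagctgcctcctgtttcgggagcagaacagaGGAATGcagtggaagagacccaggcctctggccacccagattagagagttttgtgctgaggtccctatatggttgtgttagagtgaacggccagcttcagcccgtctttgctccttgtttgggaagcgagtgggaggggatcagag

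Windows of 250 bases before the RefSeq start were found for 7 of the 10 genes, 9 windows in all, and not for *Actg2*, *Myh11* and *Tagln*. A CArG box of the strict form was in a window of 4 of these 7 genes, or in 4 of the 9 windows. It was in 1.47% of the 32851 mouse windows of the same length, searched on both strands. Looser forms were not counted. It was CCTTATTTGG in *Myl7*, from 61 to 52 bases before the start, CCTAATAAGG in *Myl9*, from 161 to 152 bases before it, CCAAATAAGG in *Actc1*, from 47 to 38 bases before it, and CCTTATATGG in the second window of *Myl6*, from 50 to 41 bases before it. The windows of *Actc1* and *Myl6* that hold a box lie inside the annotated gene, because the RefSeq start used lies within it. The MCAT letters CATTCC, also searched on both strands, were in 3 of the 9 windows, of 3 genes (*Myl7*, *Acta2* and *Tnnt2*), and in 12.6% of all windows. In *Myl7* they stood from 70 to 65 bases before the start, next to the CArG box and not overlapping it. The letters GATAA, a motif of GATA factors, were in 4 of the 9 windows, of 4 genes (*Myl7*, *Myl6*, *Acta2* and *Tnnt2*), and in 22.6% of all windows. TATAAA on the gene's own strand was in 0 of the 9 windows and in 7.59% of all windows. These matches describe letters and do not show that a factor was bound.

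*Myl7* (ENSMUSG00000020469) lies on the minus strand of chromosome 11 of GRCm38, from 5896637 to 5898782, with an exon length of 590 bases. Its exons overlap those of no other gene, and it shares no stretch of 100 bases with another gene's transcripts. It was at 1.58, 1.15 and 1.84 FPKM in Ctrl 1, 2 and 3 and at 6.69, 4.34 and 6.92 FPKM in cKO 1, 2 and 3. The groups did not overlap, and the lowest cKO value, in cKO 2, was 2.36 times the highest Ctrl value, in Ctrl 3. The mean was 1.53 ± 0.349 FPKM in Ctrl and 5.98 ± 1.43 FPKM in cKO (SD, n = 3 each), a 3.92-fold difference that ran from 3.49-fold to 4.46-fold when 1 library at a time was left out. On the log2(FPKM + 1) scale, which understates folds of low genes, the difference was 1.45 (SE 0.202), the 21st largest rise among the 17180 genes with a mean of at least 0.5 FPKM. These values are what the choice of *Myl7* rested on.

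The depth behind *Myl7* was small. FPKM values turned back into whole reads, and those of *Myl7* were 14, 11 and 19 in Ctrl 1, 2 and 3, against 61, 43 and 58 in cKO 1, 2 and 3. The 95% Poisson intervals, which cover counting error alone, ran from 0.575 to 2.88 FPKM over the Ctrl libraries and from 3.14 to 8.95 FPKM over the cKO libraries. All 6 libraries held the transcript, and the highest stood 6.01-fold above the lowest.

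**Figure D1:**
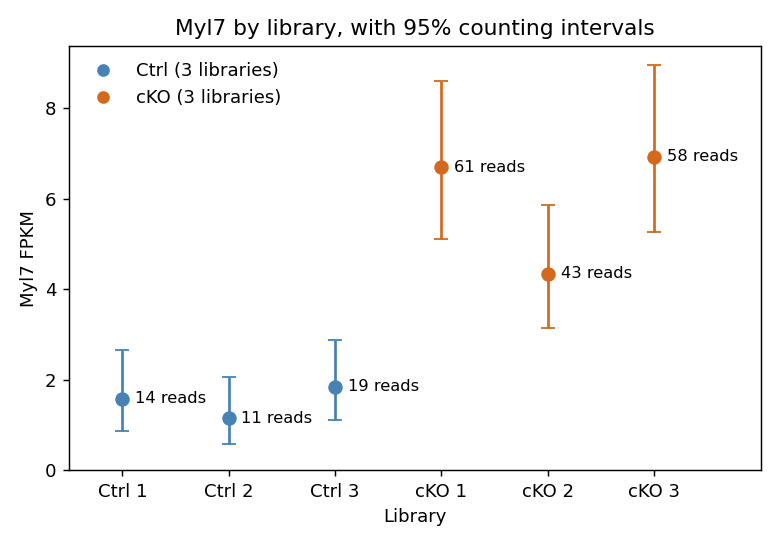
*Myl7* level (y axis, FPKM, from 0) in each of the 6 libraries (x axis), with points for values, bars for 95% Poisson counting intervals and the number of reads beside each point. The 3 Ctrl libraries (blue) lie between 1.15 and 1.84 FPKM and the 3 cKO libraries (orange) between 4.34 and 6.92 FPKM.

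Among the 17180 genes, 460 (2.68%) were higher and 301 (1.75%) lower in cKO at an unadjusted limma p below 0.05, together 4.43%. At an adjusted p below 0.05 there were 0 genes, and the smallest adjusted p was 0.392. The median log2 fold change was -0.01, and in 8.68% of the genes the groups did not overlap, with cKO above Ctrl in 4.59% and below it in 4.1%. Of the other 9 contractile genes, 6 passed the minimum level and were tested. At an unadjusted limma p below 0.05, 0 of the 6 were higher and 0 lower, their adjusted p-values were all above 0.9, and in 0 of the 6 did the groups stand apart. With so few genes, 0 is near what the share over all genes gives.

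**Figure D2:**
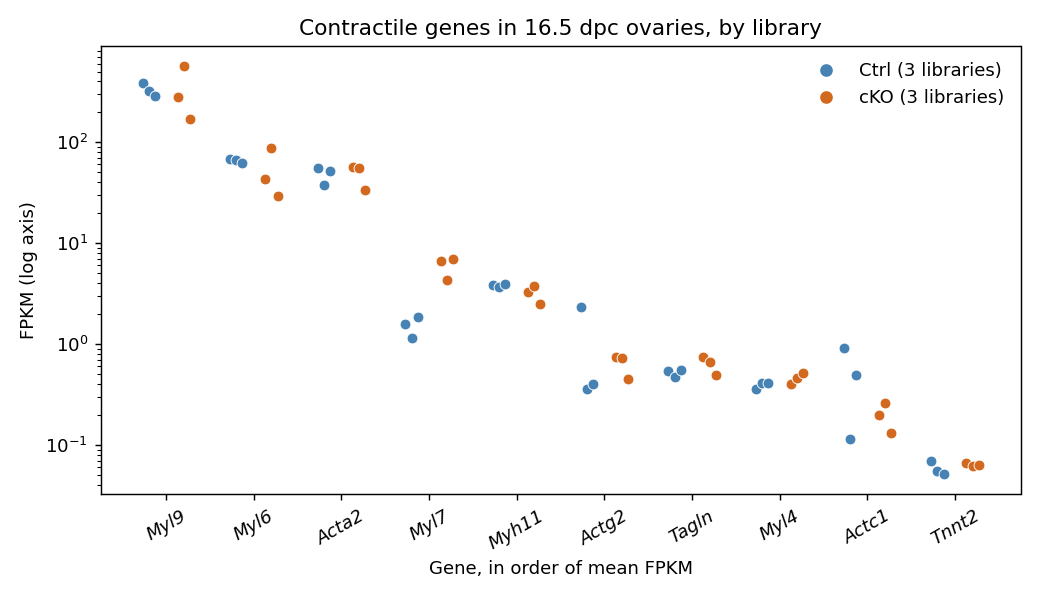
Level of each of the 10 genes (y axis, FPKM, log axis) with the genes in order of their mean (x axis), 1 point per library, Ctrl in blue and cKO in orange, both in the order 1, 2 and 3. The groups stand apart in *Myl7* alone among these 10 genes, and the mean levels run from 333.6 FPKM for *Myl9* to 0.0614 FPKM for *Tnnt2*.

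The mean levels over the 6 libraries were 333.6 FPKM for *Myl9*, 59.3 for *Myl6*, 48.3 for *Acta2*, 3.76 for *Myl7*, 3.51 for *Myh11*, 0.834 for *Actg2*, 0.576 for *Tagln*, 0.427 for *Myl4*, 0.351 for *Actc1* and 0.0614 for *Tnnt2*. Library values of neighbours in this order overlapped for *Myl6* and *Acta2*, for *Myl7* and *Myh11*, and from *Actg2* through *Tagln* and *Myl4* to *Actc1*. They did not overlap between *Myl9* and *Myl6*, between *Acta2* and *Myl7*, between *Myh11* and *Actg2*, or between *Actc1* and *Tnnt2*. The gene length behind each FPKM is the length of all annotated exons together, which is 590 bases for *Myl7*, 1162 for *Myl9*, 3187 for *Myl6*, 4637 for *Myl4* and 7752 for *Tnnt2*. A gene with many annotated exons that uses few of them is therefore listed too low.

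*Myl9* (chromosome 2, 156775420 to 156781658, plus strand), the regulatory light chain of smooth muscle and non-muscle cells, was the most abundant of the 10 genes. It was at 385, 317 and 289 FPKM in Ctrl 1, 2 and 3 and at 278, 563 and 169 FPKM in cKO 1, 2 and 3. The cKO libraries thus held both the highest value, in cKO 2, and the lowest, in cKO 3, a 3.33-fold range. The log2 difference was -0.14 (SE 0.412, 95% interval -1.12 to 0.84, unadjusted limma p = 0.748, adjusted p = 0.989, exact permutation p = 0.8).

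*Myl6* (chromosome 10, 128490860 to 128494145, minus strand), the essential light chain that pairs with it, followed the same order in cKO. It was at 67.6, 66.6 and 62.4 FPKM in Ctrl 1, 2 and 3 and at 43.3, 86.5 and 29.2 FPKM in cKO 1, 2 and 3, so Ctrl lay in a narrow band and cKO on both sides of it. The log2 difference was -0.44 (SE 0.359, 95% interval -1.296 to 0.41, unadjusted limma p = 0.258, adjusted p = 0.978, exact permutation p = 0.4). Without cKO 2 it was -0.86 with an unadjusted limma p of 0.00374, and without cKO 3 it was -0.10 with a limma p of 0.753. The call thus depends on which library is left out. It is not particular to *Myl6*, since leaving out cKO 2 raised the genes called higher over all 17180 from 460 to 1457. Those called lower went from 301 to 1036. Of the stretches of 100 bases in *Myl6* transcripts, 3.43% also occur in the pseudogenes *Gm10080*, *Gm11836*, *Gm5526*, *Gm5915* and *Gm8894*, and reads there could have been divided among them. The ratio of *Myl9* to *Myl6* stayed between 4.63 and 5.69 in Ctrl and between 5.78 and 6.51 in cKO. Separately, the study lists a skipped exon of *Myl6* as changed between cKO and Ctrl ovaries. Exon use was not measured here, and a gene total cannot show it.

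Of the 17180 genes, 22.8% were lowest in cKO 3, 22.3% were highest in cKO 2 and 9.59% were both, as *Myl9* and *Myl6* were. *Myl7* was neither. Its lowest value in the cKO group was in cKO 2, where *Myl9* and *Myl6* were highest, and its highest was in cKO 3, where they were lowest. The ratio of *Myl7* to *Myl9* was between 0.00363 and 0.00637 in Ctrl and between 0.00772 and 0.041 in cKO.

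**Figure D3:**
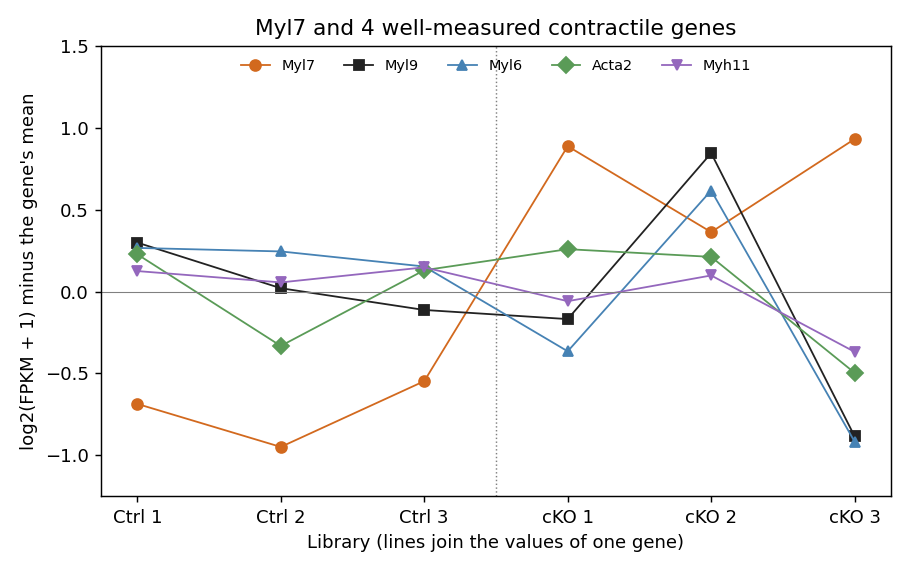
Deviation of log2(FPKM + 1) from the gene's mean over 6 libraries (y axis) by library (x axis) for *Myl7* and 4 other contractile genes. *Myl9* (black squares) and *Myl6* (blue triangles) peak in cKO 2 and are lowest in cKO 3, while *Myl7* (orange circles) lies below 0 in every Ctrl library and above 0 in every cKO library.

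As a share of the summed FPKM of 7 regulatory light chain genes, *Myl9* made up 90.6% to 92.2% in Ctrl and 85.7% to 93.9% in cKO. *Myl7* made up 0.33% to 0.577% in Ctrl and 0.725% to 3.51% in cKO. *Myl12a*, a non-muscle regulatory light chain, took 4.61% to 8.84% over all libraries. These shares are uncertain, because 1 entry per symbol was summed and exons overlap. Of the exon bases of *Myl12b*, 26.7% lie in a same-strand gene of the same symbol. Of those of *Myl12a*, 19.9% lie in exons of a gene named *Myl12b* and of *Myom1*. How reads there were counted is not known. The ventricle's *Myl2* had at most 2 reads in any library and *Myl10* had 0 reads in all 6, so *Myl7* was the only heart-type regulatory light chain with more than 2 reads per library among the 7.

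Among the other regulatory light chains, 4 were tested and 1 passed the limit, *Mylpf*, the form of fast skeletal muscle, which fell. It was at 6.72, 6.28 and 3.88 FPKM in Ctrl 1, 2 and 3 and at 3.23, 3.03 and 2.39 FPKM in cKO 1, 2 and 3. The groups did not overlap, and the log2 difference was -0.75 (SE 0.207, unadjusted limma p = 0.00898, adjusted p = 0.978, exact permutation p = 0.1). The median of the 4 was -0.13. *Myl12a* was at 22.8 ± 0.22 FPKM in Ctrl and 22.3 ± 5.12 in cKO (SD, n = 3 each), a log2 difference of -0.05 (unadjusted limma p of 0.766, adjusted p = 0.99).

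Of 5 essential light chains, 2 were tested, *Myl6* and *Myl6b*, and *Myl6b* rose. *Myl6b*, a light chain of slow muscle and non-muscle cells, was at 7.26, 6.39 and 8.24 FPKM in Ctrl 1, 2 and 3 and at 11.6, 10.1 and 11.9 FPKM in cKO 1, 2 and 3. Every cKO value stood above every Ctrl value, and the log2 difference was 0.56 (SE 0.134, unadjusted limma p = 0.00434, adjusted p = 0.978, exact permutation p = 0.1). Its share of the summed essential light chains was 8.66% to 11.6% in Ctrl and 10.3% to 28.4% in cKO. Both *Mylpf* and *Myl6b* stayed past the unadjusted limit in 15 of 15 alternative fits.

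*Myl4* (chromosome 11, 104550663 to 104595753, plus strand), the essential light chain that partners *Myl7* in the atria, was below the minimum level. It was at 0.359, 0.413 and 0.407 FPKM in Ctrl 1, 2 and 3 and at 0.404, 0.463 and 0.516 FPKM in cKO 1, 2 and 3, from 25 to 36 reads per library. The groups overlapped at cKO 1, and the exact permutation test gave p = 0.3.

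*Acta2* (chromosome 19, 34241090 to 34255336, minus strand), the actin of vessel smooth muscle, was at 55.5, 37.3 and 51.8 FPKM in Ctrl 1, 2 and 3 and at 56.8, 54.9 and 33.2 FPKM in cKO 1, 2 and 3. The groups overlapped across nearly their whole range, and the log2 difference was -0.02 (SE 0.249, 95% interval -0.61 to 0.58, unadjusted limma p = 0.947, adjusted p = 0.999, exact permutation p = 0.9). *Myh11* (chromosome 16, 14194535 to 14291372, minus strand), the smooth muscle heavy chain, was at 3.88, 3.65 and 3.95 FPKM in Ctrl and at 3.29, 3.79 and 2.47 FPKM in cKO. Here cKO 1 and cKO 3 lay below all Ctrl libraries and cKO 2 among them, with a log2 difference of -0.22 (SE 0.155, 95% interval -0.59 to 0.15, unadjusted limma p = 0.201, adjusted p = 0.978, exact permutation p = 0.2).

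The 2 muscle actins with few reads were high in Ctrl 1. *Actg2* (chromosome 6, 83512905 to 83536265, minus strand), the actin of gut muscle, was at 2.31, 0.357 and 0.404 FPKM in Ctrl 1, 2 and 3, from 54, 9 and 11 reads, and at 0.748, 0.727 and 0.452 FPKM in cKO 1, 2 and 3, from 18, 19 and 10 reads. *Actc1* (chromosome 2, 114047282 to 114053548, minus strand), the actin of the heart and of embryonic muscle, was at 0.907, 0.115 and 0.495 FPKM in Ctrl and at 0.20, 0.258 and 0.131 FPKM in cKO, from 22, 3 and 14 reads against 5, 7 and 3. In both genes Ctrl 1 was above all other libraries. Ctrl 2 and Ctrl 3 lay below every cKO library in *Actg2* and on both sides of cKO in *Actc1*. The log2 difference of *Actg2* was -0.18 (SE 0.357, unadjusted limma p = 0.639, adjusted p = 0.986, exact permutation p = 1). *Actc1* was below the minimum level, with an exact permutation p = 0.4.

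*Tagln* (chromosome 9, 45929619 to 45936058, minus strand), an early smooth muscle marker, was at 0.537, 0.466 and 0.547 FPKM in Ctrl 1, 2 and 3 and at 0.748, 0.659 and 0.496 FPKM in cKO 1, 2 and 3. The groups overlapped at cKO 3, and the log2 difference was 0.11 (SE 0.151, unadjusted limma p = 0.509, adjusted p = 0.986, exact permutation p = 0.3). This value is uncertain, because 67.9% of its exon bases lie in exons of *Pcsk7* and *Gm48529* on the other strand and no source used here says whether counting used strand. *Tnnt2* (chromosome 1, 135836354 to 135852260, plus strand) was the lowest of the 10 genes, with 7 or 8 reads in every library and between 0.052 and 0.069 FPKM.

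The other genes of these pathways were described by lists written from general knowledge, with earlier results of these data known. Of 23 smooth muscle genes, 19 were tested, and 0 were higher and 0 lower at an unadjusted limma p below 0.05. Their median log2 difference was -0.11, against -0.01 over all genes. The kinase *Mylk*, which phosphorylates *Myl9*, was at 11.9 ± 0.484 FPKM in Ctrl and 11.03 ± 1.42 in cKO (SD, n = 3 each), and the tropomyosin *Tpm1* at 51.3 ± 5.87 and 50.2 ± 11.6. The summed level of the list was 490 to 603 FPKM in Ctrl and 331 to 788 FPKM in cKO, and *Myl9*, *Des*, *Smtn*, *Tpm1* and *Tpm2* were all highest in cKO 2 and lowest in cKO 3.

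Of the 24 heart muscle genes other than *Myl7*, only 7 reached the minimum level, with a median log2 difference of -0.05, and 1 of them, *Tnni1*, rose. *Tnni1*, the troponin I of slow skeletal muscle and of the fetal heart, was at 11.35, 6.47 and 7.20 FPKM in Ctrl 1, 2 and 3 and at 13.0, 13.2 and 11.3 FPKM in cKO 1, 2 and 3. Ctrl 1 reached the level of cKO 3, and the log2 difference was 0.56 (SE 0.204, unadjusted limma p = 0.0291, adjusted p = 0.978, exact permutation p = 0.2). The call was lost without Ctrl 2, Ctrl 3, cKO 1 or cKO 2, each left out alone, with an unadjusted limma p of up to 0.102. Several defining heart genes were at or near 0. *Nkx2-5* and *Sln* had 0 reads in all 6 libraries, a count that allows up to 3 reads per library, the atrial peptide gene *Nppa* had at most 2 reads, the ventricular light chains *Myl2* and *Myl3* at most 2 reads and *Tbx5* at most 3. Reads of the peptide gene *Nppb* were 2, 0 and 0 in Ctrl 1, 2 and 3, against 4, 3 and 4 in cKO 1, 2 and 3, so its groups did not overlap, at counts too low for a test. Other genes of the list were present, among them *Smpx*, a small protein of striated muscle, at 13.7 ± 3.81 FPKM in Ctrl and 15.2 ± 6.01 in cKO (SD, n = 3 each), and the troponin I *Tnni3* at 4.77 ± 0.941 and 5.95 ± 3.05. The log2 differences were 0.10 for *Smpx* and 0.19 for *Tnni3*, with adjusted limma p-values of 0.989 and 0.986.

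Of 18 skeletal muscle genes, 8 were tested, 0 were higher and 1, *Mylpf*, was lower. Of 18 non-muscle contractile genes, all 18 were tested and 0 passed the limit, with *Actb* at 484.5 ± 48.8 FPKM in Ctrl and 472.5 ± 29.6 in cKO (SD, n = 3 each). Of 13 genes that add or remove phosphate on light chains, 11 were tested and 0 passed. Of 19 regulators of muscle genes, 12 were tested and 0 passed. Among these, *Srf*, which binds the CArG box, was at 18.1 ± 1.24 FPKM in Ctrl and 15.5 ± 3.15 in cKO, a log2 difference of -0.22 (unadjusted limma p of 0.212, adjusted p = 0.978). *Gata4*, a regulator of heart and of gonadal somatic cells, was at 97.1 ± 6.12 and 96.3 ± 28.9 FPKM, a log2 difference of -0.05 (unadjusted limma p of 0.823, adjusted p = 0.993). Over all these lists without *Myl7*, 74 genes were tested, 2 were higher (*Myl6b* and *Tnni1*) and 1 was lower (*Mylpf*), with a median log2 difference of -0.02, so these shares lay near those over all genes.

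**Figure D4:**
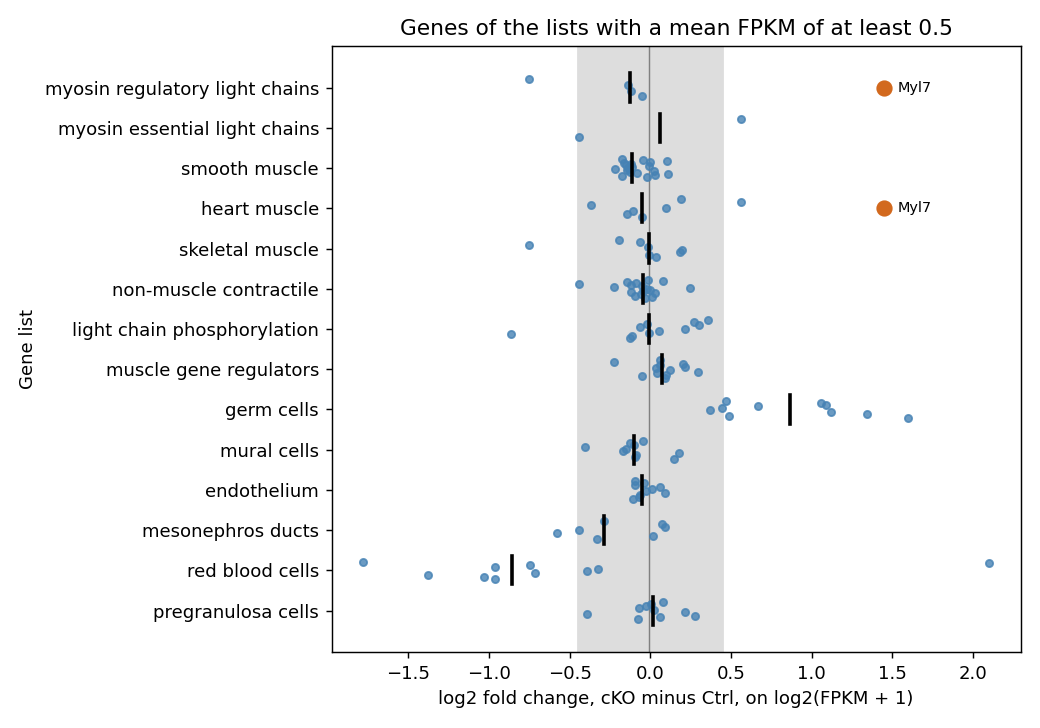
Log2 fold change of single genes (x axis, cKO minus Ctrl on log2(FPKM + 1)) in 14 gene lists (y axis), with the median of each list without *Myl7* as a black bar and the range between the 5th and 95th percentile of all 17180 genes in grey. *Myl7* (orange) lies at 1.45, outside the grey range, while the medians of the contractile lists lie between -0.13 and 0.08.

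Markers of other cell types were measured in the same libraries. The summed level of 10 germ-cell genes was highest in cKO 1 and cKO 3, in which *Myl7* was highest too, while *Rhox9* and *Pou5f1* were lower in cKO 1 than in cKO 2. Of 10 germ-cell genes, 3 rose, *Dazl* (log2 difference 1.60, unadjusted limma p of 0.0345), *Dppa3* (1.34, p of 0.0312) and *Rhox9* (1.09, p of 0.00514), each with an adjusted p = 0.978, and the list's median was 0.87, with 0 of 10 genes at 0 in any library. Over the 17180 genes, 2.68% were called higher. All 10 germ-cell genes had a log2 difference above 0, against 47.9% of the 17180 genes. The calls of *Dazl* and *Dppa3* were lost in 4 and 3 of 15 alternative fits, by leaving out single libraries, with unadjusted limma p-values up to 0.11 and 0.1.

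The summed level of the 10 germ-cell genes was 120, 230 and 436 FPKM in Ctrl 1, 2 and 3 and 576, 235 and 630 FPKM in cKO 1, 2 and 3. Ctrl 2 and cKO 2 had nearly the same sum, with *Myl7* at 1.15 and 4.34 FPKM. Ctrl 3 had more than cKO 2, with *Myl7* at 1.84 FPKM. The abundant genes *Dazl*, *Taf7l* and *Tex101* carry most of this sum. Set against Ctrl 3, less abundant germ-cell genes went both ways in cKO 2. *Dppa5a* was at 10.2 FPKM in Ctrl 3 and 5.97 FPKM in cKO 2, and *Mov10l1* at 28.9 and 13.5 FPKM. In 2 of the 10 genes, *Rhox9* and *Dppa3*, every cKO library was above every Ctrl library, as in *Myl7*. Over the 17180 genes this held for 4.59%. *Rhox9* was at 0.295, 0.745 and 1.26 FPKM in Ctrl 1, 2 and 3 and at 2.002, 2.42 and 3.85 FPKM in cKO 1, 2 and 3, and *Dppa3* at 0.897, 0.139 and 1.54 FPKM in Ctrl and at 2.68, 1.67 and 8.05 FPKM in cKO. *Stra8*, a gene of meiotic entry outside the list, was at 2.96, 2.12 and 9.21 FPKM in Ctrl and at 17.5, 11.6 and 38.7 FPKM in cKO. The groups did not overlap in these 3 genes. For *Stra8* the genotype differs too, since the cKO mice carry *Stra8-GFPCre* and the labels name no transgene for Ctrl. Whether the transgene adds to the *Stra8* reads was not tested. Per 1000 FPKM of this sum, *Myl7* was at 13.2, 5.001 and 4.23 FPKM in Ctrl and at 11.6, 18.5 and 10.99 FPKM in cKO, so that the groups overlapped at Ctrl 1. The part of germ-cell content in the difference of *Myl7* was not tested.

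**Figure D5:**
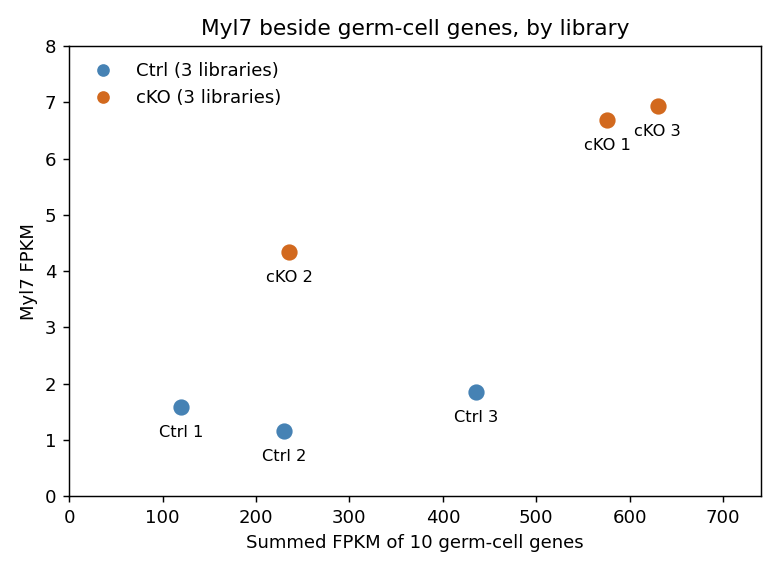
*Myl7* level (y axis, FPKM) against the summed FPKM of 10 germ-cell genes (x axis), 1 point per library, Ctrl in blue and cKO in orange. Ctrl 2 and cKO 2 lie at sums of 230 and 235 FPKM with *Myl7* at 1.15 and 4.34 FPKM, and Ctrl 3, at a sum of 436 FPKM, has *Myl7* at 1.84 FPKM. The sum rests mostly on abundant genes. *Rhox9* and *Dppa3*, not drawn singly, were higher in cKO 2 than in every Ctrl library. *Dppa5a* and *Mov10l1*, also in the sum, were lower in cKO 2 than in Ctrl 3. *Stra8*, outside the sum, was higher in cKO 2 than in every Ctrl library, but the cKO mice carry *Stra8-GFPCre*.

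In the other lists, 0 of 10 mural cell genes, which mark the muscle-like cells of vessel walls, 0 of 10 endothelial genes and 0 of 10 pregranulosa genes passed the limit, with medians of -0.10, -0.05 and 0.02. Of 7 mesonephros duct genes tested, *Gata3* fell (-0.58, unadjusted limma p of 0.0096, adjusted p = 0.978). Of 10 red blood cell genes, the embryonic globin *Hbb-y* rose (2.10, unadjusted limma p of 0.00589, adjusted p = 0.978), while the median was -0.85. The summed level of the red blood cell list was highest in Ctrl 1, the library in which *Actg2* and *Actc1* were highest, and lowest in cKO 1. Its part in those values was not tested.

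The nearest genes on each side of *Myl7* that reached the minimum level did not pass the limit. *Pold2*, a DNA polymerase subunit 18345 bases away, had a log2 difference of -0.06 (unadjusted limma p of 0.724, adjusted p = 0.988) and *Aebp1*, 24549 bases away, of -0.30 (p of 0.183, adjusted p = 0.978). On the other side, *Ykt6*, a membrane fusion gene 56911 bases away, had a log2 difference of 0.16 (unadjusted limma p of 0.297, adjusted p = 0.978) and *Nudcd3*, 206909 bases away, of 0.18 (p of 0.160, adjusted p = 0.978).

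The 5 genes whose pattern over the 6 libraries was most like that of *Myl7* were *Cdkn2a*, *Gm28060*, *C330011M18Rik*, *Ngb* and *2310068J16Rik*. Likeness was the root mean square difference of log2(FPKM + 1) after each gene's mean was taken off, and it was 0.202, 0.205, 0.229, 0.245 and 0.252 in this order. *Cdkn2a*, which encodes cell-cycle inhibitors, was at 3.24, 2.42 and 5.18 FPKM in Ctrl 1, 2 and 3 and at 10.8, 9.25 and 16.0 FPKM in cKO 1, 2 and 3. *Ngb*, which encodes neuroglobin, was at 0.542, 0.358 and 0.365 FPKM in Ctrl and at 5.22, 1.70 and 3.48 FPKM in cKO. *C330011M18Rik* was at 2.13, 3.01 and 3.34 FPKM in Ctrl and at 9.27, 5.16 and 9.75 FPKM in cKO. As in *Myl7*, cKO 2 was the lowest cKO library in each of these 3 genes. *Gm28060* rested on 1, 0 and 0 reads in Ctrl and 8, 6 and 8 reads in cKO, so its place in this order rests on few reads. The 5 genes were chosen on the difference that *Myl7* was chosen for, so their rise is a description, and 0 of the other 9 contractile genes were among them.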

How the data were processed

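RNA of ovaries at 16.5 dpc was sequenced in 3 Ctrl and 3 cKO libraries, given as biological replicates in the study's methods. The protocol text of the labels names retina, while the tissue field and the methods name ovary. Reads were aligned by the authors to mm10 (GRCm38) with HISAT2 2.0.5 and assigned to genes with featureCounts, and the deposited values are FPKM. No source used here names the annotation release or strand setting. Whole read numbers were recovered from FPKM and gene length, with 100% of values whole to within 0.05. Poisson intervals (95%) were set on these reads with scipy 1.17.1.

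The members and lists were chosen with earlier results of these data known. Genes had to average at least 0.5 FPKM, which 17180 did, and their log2(FPKM + 1) was compared with limma 3.58.1 (R 4.3.3), two-sided, with an intensity trend and no covariate. Calls used an unadjusted p below 0.05, the limit of the study, with Benjamini-Hochberg adjusted p over all genes beside it. An exact permutation test, written with numpy 2.4.6, was run on single genes, and genes below the minimum were compared by it alone. *Myl7* was not tested. Named genes are the 10 genes, *Srsf1*, the 5 genes most like *Myl7*, the nearest 2 genes on each side that reached the minimum, and, in each list, genes past the limit and some of the most abundant. *Mylk*, *Myl12a*, *Srf*, *Gata4*, *Tpm1*, *Tnnc1*, *Ldb3* and the heart genes with few reads were named in addition, after their values were seen. Of 115 contractile and regulator symbols listed besides *Myl7*, 112 were found, among them *Mkl1* and *Mkl2*, the older symbols of *Mrtfa* and *Mrtfb*. Overlapping exons and shared stretches of 100 bases were read from GENCODE annotation and transcripts of GRCm38. The fit was also run on simulated libraries drawn with a common spread for all genes. Real spreads differ by gene and library, so that run does not give the error rate in these data. Alternatives were other pseudocounts (0.1, 0.5), other minimum levels (none, 1), median-ratio scaling, quantile normalization, voom on whole reads, a fit without the intensity trend, a replicate block and each library left out in turn.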

Additional observations from a re-analysis of the deposited data

How the results depend on the processing

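The log2 difference of *Myl7*, whose direction was fixed by the choice of the gene, was 1.45, or 1.90 with a pseudocount of 0.1, 1.89 with voom on whole reads and 1.34 to 1.64 with 1 library left out. Genes higher in cKO numbered 460, or 736 with no minimum FPKM and 201 to 1457 with 1 library left out, and genes lower 301, or 595 and 163 to 1036. Genes past an adjusted p of 0.05 numbered 0 except without Ctrl 1, with 4. Of the other tested members, 0 to 1 passed with 1 library left out and 0 under every other alternative. The 1 was *Myl6* without cKO 2, the fit with the most genes called, 1457 higher and 1036 lower. For *Myl9* the log2 difference ran from -0.60 to 0.27, for *Acta2* from -0.19 to 0.23 and for *Actg2* from -0.40 to 0.25, so no direction is given for them. Over the contractile lists, 2 genes were higher, or 4 with no minimum and 1 to 5 with 1 library left out, and 1 was lower, or 2 with no minimum, 2 with no intensity trend and 1 to 3 with 1 library left out. The cause of these changes was not tested.

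Deviations of Ctrl and cKO libraries with the same replicate number had correlations across genes of -0.389, -0.0297 and 0.117. Those of libraries with unlike numbers ran from -0.343 to 0.350. Deviations within a group of 3 libraries sum to 0 and so are tied to each other, and these values cannot exclude a pairing. With the replicate number as a block, *Myl7* stayed at 1.45, 434 genes were higher and 247 lower, and 0 of the 6 other members, 2 list genes higher and 1 lower passed the limit. With 11 to 61 reads of *Myl7* per library and 3 libraries per group, its fold is known only roughly, and *Actc1*, *Myl4* and *Tnnt2* are too low for small differences to be seen.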

Other observations

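Among the genes that add phosphate to light chains, the kinase *Mylk3*, best known from the heart, was chosen for this paragraph after its values were seen. It was at 17.1, 7.21 and 2.42 FPKM in Ctrl 1, 2 and 3 and at 1.89, 3.66 and 5.26 FPKM in cKO 1, 2 and 3, so the groups overlapped. Its log2 difference was -0.86 (SE 0.597, unadjusted limma p of 0.193, adjusted p = 0.978). The red blood cell anion exchanger *Slc4a1* put the 6 libraries in the same order, at 334, 134 and 40.1 FPKM in Ctrl and at 5.17, 56.8 and 127 FPKM in cKO.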
